A study of Rattus norvegicus with 8 samples.

Results

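The 8 genes described here, Rorb, Cux2, Fezf2, Tbr1, Tle4, Foxp2, Etv1 and Fn1, mark the neocortex and the subiculum, the tissues that border field CA1 of the dorsal hippocampus. They were taken as the rows of the authors' deposited analysis table that carry these gene symbols. Each symbol had 1 probe set, which gives 8 of the 30323 gene-class probe sets in the table. The comparison asks whether tissue next to CA1 entered the punches of one group more than those of the other. Expression was measured on Affymetrix arrays, 1 per litter, in male Sprague-Dawley rats of the first generation, which were young adults and drug-naive. The nicotine-sired group holds 4 sons whose sires took nicotine by self-administration for 60 days, at 0.03 mg/kg intravenously, and the saline-sired group holds 4 sons of yoked saline sires. The sons themselves received no drug, and the 8 arrays come from 8 fathers. RNA came from bilateral cryostat punches of 1 mm3, so each value is an average over every cell type in the punch, and fewer cells of a type cannot be told apart from less RNA per cell.

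The neocortex lies above the dorsal hippocampus, across the white matter of the corpus callosum and the alveus, and the subiculum continues CA1 on the side away from CA3. Excitatory neurons of the neocortex are arranged in layers, and most of these genes encode transcription factors that set or mark the identity of neurons in 1 or a few layers, as known mainly from mouse. Such genes serve as layer markers, but many of them are also used outside the neocortex, the hippocampus included. Tbr1 is a factor of glutamatergic neurons of both neocortex and hippocampus. Foxp2 is also a factor of striatal medium spiny neurons and of the thalamus.

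The median gene-class probe set read 6.25 to 6.29 log2 units on nicotine-sired arrays and 6.30 to 6.35 on saline-sired arrays. Past the filter on dim probe sets (a mean over the 8 arrays above 6.30, the median gene-class probe set) were 7 of 8 CA1 markers, 8 of 10 CA2 and CA3 markers and 5 of 8 dentate granule markers. The filter does not set the hippocampus apart, since 5 of 5 thalamic markers passed it too. So did 8 of 9 striatal markers, but the mean used for the filter includes nicotine-sired 4, where they were high. Drd2 read 9.34 there and 5.78 to 6.57 on the others. Of the 8 genes described here 7 passed the same filter and Foxp2 did not. Nicotine-sired 4 stood apart in markers of tissue outside the hippocampus, with a mean centred level of 2.10 for the striatal list and 3.66 for the choroid plexus list, against at most -0.065 and 0.87 on the other arrays. Centred means that each gene's mean over the 8 arrays was subtracted.

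Across the 8 genes, Etv1 was the one whose difference passed the test, and it rose in nicotine-sired sons. Fn1 was higher on every nicotine-sired array than on every saline-sired array, without passing the adjusted threshold. Tbr1 differed by -0.37 ± 0.11 log2 units, also short of the threshold. Rorb, Cux2 and Tle4 differed by 0.07 or less in either direction, and the largest values of Fezf2 and Foxp2 came from 1 array each. In all, limma called 1 of the 7 genes past the filter at an adjusted p of 0.05, beside 2.06% of the 15161 kept probe sets. The groups did not overlap in 2 of the 7, beside 14.3% of the kept probe sets. The median difference was 0.07 over the 7 genes and 0.02 over all kept probe sets.

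**Figure D1:**
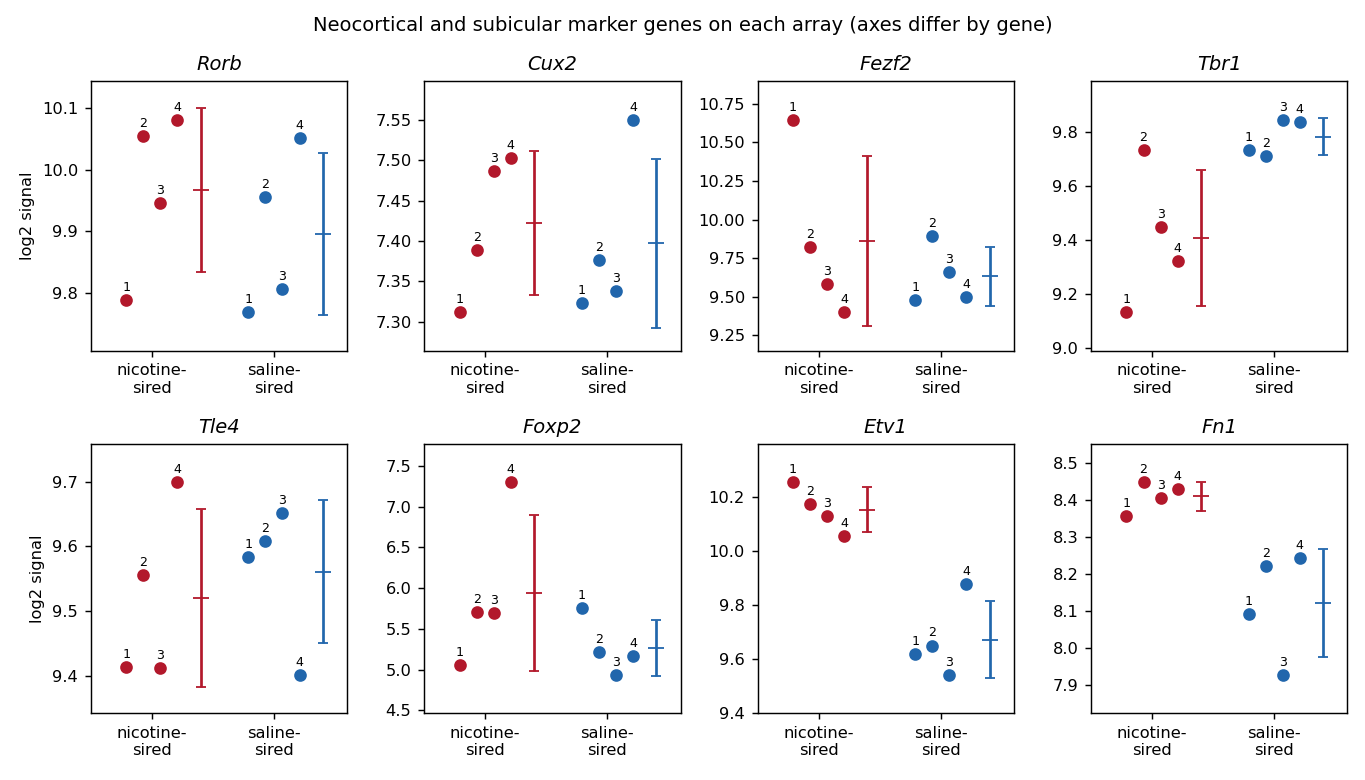
Log2 signal of each of the 8 genes on the 4 nicotine-sired (red, left) and 4 saline-sired (blue, right) arrays, with litter numbers beside the points and the mean ± SD of each group as a bar. Vertical axes differ by gene. Etv1 and Fn1 are the genes whose groups do not overlap, Fezf2 stands at 10.65 on nicotine-sired 1 and Foxp2 at 7.30 on nicotine-sired 4.

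No difference was detected in the upper-layer genes Rorb and Cux2 with 4 arrays per group. Rorb, on chromosome 1, encodes an orphan nuclear receptor that marks layer 4. It read 9.79, 10.06, 9.95 and 10.08 log2 units on nicotine-sired arrays 1 to 4, and 9.77, 9.96, 9.81 and 10.05 on saline-sired arrays 1 to 4. The groups overlapped over nearly their whole ranges. The difference was 0.07 ± 0.09 (adjusted p = 0.651 in limma), with a 95% interval from -0.12 to 0.27, that is from 0.917-fold to 1.20-fold. Across the 8 arrays Rorb spanned 0.313 log2 units, and 73.7% of kept probe sets spanned more.

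Cux2, on chromosome 12, encodes a homeobox factor of layers 2 to 4. It read 7.31, 7.39, 7.49 and 7.50 on nicotine-sired arrays, and 7.32, 7.38, 7.34 and 7.55 on saline-sired arrays. The highest value belonged to saline-sired 4 and the lowest to nicotine-sired 1. The difference was 0.03 ± 0.08 (adjusted p = 0.877 in limma), with an interval from -0.16 to 0.21, and its sign turned with quantile normalization (-0.019) and without nicotine-sired 4 (-0.0013). Cux2 was of modest signal: 4 to 7 of the 23 antigenomic control probe sets, which match no rat sequence, were brighter on the same array. None of the 23 was brighter than Rorb on any of the 8 arrays. Both upper-layer genes together had mean centred levels from -0.12 to 0.12 on nicotine-sired arrays and from -0.12 to 0.13 on saline-sired arrays.

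Deep-layer genes did not move as a block. Fezf2 (chr15:16854926-16858715 in Rnor_5.0, as the annotation in the file gives it) encodes a zinc finger factor that specifies the layer 5 neurons projecting below the cortex. It read 10.65, 9.82, 9.58 and 9.40 on nicotine-sired arrays, and 9.48, 9.89, 9.66 and 9.50 on saline-sired arrays. Nicotine-sired arrays held both the highest and the lowest value of the 8. Its range of 1.25 log2 units was exceeded by 5.42% of kept probe sets. The difference of 0.23 ± 0.24 (adjusted p = 0.583 in limma) rested on nicotine-sired 1, and it was -0.03 ± 0.13 without that array. Nicotine-sired 1 also had the highest CA1 score (1.77, the mean centred level of 7 CA1 markers) and the lowest dentate score (-1.42) of the 8 arrays. On nicotine-sired 3 the CA1 score was next highest (1.19), and Fezf2, at 9.58, lay within the saline-sired range. The part of CA1 and dentate tissue in the Fezf2 value was not tested.

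Tbr1 (chr3:54349276-54356654 in Rnor_5.0) encodes a T-box factor of layer 6 corticothalamic neurons. It read 9.13, 9.73, 9.45 and 9.32 on nicotine-sired arrays, and 9.73, 9.71, 9.85 and 9.84 on saline-sired arrays. Nicotine-sired 1, 3 and 4 lay below all saline-sired arrays, and nicotine-sired 2 lay among them. The difference was -0.37 ± 0.11 (adjusted p = 0.101 in limma), with an interval from -0.63 to -0.12. Without nicotine-sired 2 it passed, at -0.48 ± 0.09 (adjusted p = 0.0308 in limma), in a fit that called 672 kept probe sets in place of 313. Leaving out any other single array gave an adjusted p from 0.131 to 0.201. The authors' deposited table gives Tbr1 an adjusted p-value of 0.754. Tbr1 was lowest on nicotine-sired 1, the array where Fezf2 was highest.

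Tle4 (chr1:238531404-238665281 in Rnor_5.0), a corepressor found in corticothalamic neurons of layer 6, read 9.41, 9.56, 9.41 and 9.70 on nicotine-sired arrays, and 9.58, 9.61, 9.65 and 9.40 on saline-sired arrays. Its highest value was on nicotine-sired 4 and its lowest on saline-sired 4. The difference was -0.04 ± 0.09 (adjusted p = 0.801 in limma), with an interval from -0.23 to 0.15.

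Foxp2, on chromosome 4, encodes a forkhead factor of layer 6 neurons, and it was dim on 7 of the 8 arrays. It read 5.06, 5.71, 5.69 and 7.30 on nicotine-sired arrays, and 5.75, 5.22, 4.94 and 5.16 on saline-sired arrays. Nicotine-sired 4 alone lay above the range of the saline-sired arrays. On the other 7 arrays 9 to 11 of the 23 antigenomic probe sets were brighter than Foxp2, and on nicotine-sired 4 there were 5. In the fit of all gene-class probe sets, where limma called 0.511%, Foxp2 differed by 0.67 ± 0.39 (adjusted p = 0.377). Without nicotine-sired 4 the difference was 0.22 ± 0.21. The striatal list had its single high value on that same array, and its median difference of 0.49 was -0.055 without it. Limma called 0 of its 8 genes past the filter, with 0 at an unadjusted p under 0.05, and the authors' deposited table called 0. Drd2, the dopamine receptor of the indirect pathway, read 9.34 on nicotine-sired 4, and 5.78 to 6.57 on the other 7 arrays, and its saline-sired mean of 6.17 lay under the filter value. The thalamic list stood at 0.14 on nicotine-sired 4, below the 0.18 of nicotine-sired 2. Its genes, looked at after the values were seen, differed in this. Tcf7l2 was highest on nicotine-sired 4, at 7.73, and read 6.75 to 7.48 on the others, while Lef1, Prkcd, Rora and Lhx9 were not highest there. The part of striatal or thalamic tissue in the Foxp2 value was not tested.

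Etv1, on chromosome 6, encodes an ETS factor that marks a class of layer 5 neurons. It read 10.25, 10.17, 10.13 and 10.05 on nicotine-sired arrays, and 9.62, 9.65, 9.54 and 9.88 on saline-sired arrays. All 4 nicotine-sired values lay above all 4 saline-sired values, the nearest pair being nicotine-sired 4 and saline-sired 4. Etv1 rose by 0.48 ± 0.08 log2 units (1.40-fold, adjusted p = 0.0312 in limma), with an interval from 1.23-fold to 1.58-fold. The authors' deposited table gives it a ratio of 1.40 and an adjusted p-value of 0.0131, and it was the only one of the 8 genes called there, beside 5.53% of gene-class probe sets. The call was lost without nicotine-sired 1 (adjusted p = 0.0617), nicotine-sired 3 (0.0724), saline-sired 1 (0.105), saline-sired 2 (0.0951) or saline-sired 3 (0.0725), while the difference itself stayed between 0.44 and 0.55 over the 8 fits that each leave out 1 array. The fits that lost the call found 0 to 98 called among all kept probe sets, in place of 313.

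The level of Etv1 ran along with that of CA1 markers. The CA1 score was 1.77, 0.51, 1.19 and -0.04 on nicotine-sired arrays, and -1.02, -0.72, -1.62 and -0.09 on saline-sired arrays. Both measures put the 8 arrays in the same order except for nicotine-sired 2 and 3, which changed places. Of the 7 CA1 markers past the filter all lay higher on nicotine-sired arrays (median difference 1.78), and 1 of them passed, beside 2.06% of kept probe sets. All 7 had an unadjusted p under 0.05, beside 24%, and all 7 were called in the authors' deposited table, beside 5.53% of gene-class probe sets. Dcn, decorin, rose by 2.11 ± 0.41 (adjusted p = 0.0398 in limma), a call lost without nicotine-sired 1 or 3 or saline-sired 1, 2 or 3 (adjusted p from 0.0848 to 0.124). Those fits called 0 to 98 of all kept probe sets. The score itself did not overlap between the groups. With it as a covariate Etv1 differed by 0.24 ± 0.10 (adjusted p = 0.523 in limma, where 0% of kept probe sets were called). The level of CA1 markers and the sires' treatment cannot be told apart on these arrays. Whether the score measures the share of CA1 tissue alone, or also neocortex or subiculum, was not tested.

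**Figure D2:**
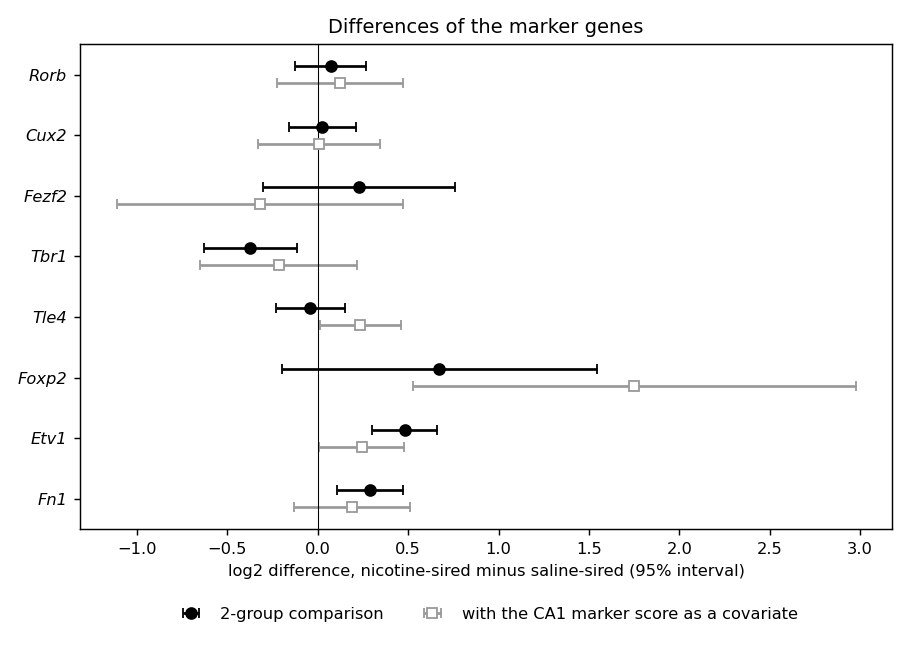
Difference between the means of nicotine-sired and saline-sired arrays for each of the 8 genes, in log2 units, with its 95% interval from limma. Filled circles are the 2-group comparison and open squares the same fit with the CA1 score as a covariate, in which the interval of Etv1 runs from 0.0084 to 0.48 and Fezf2 lies at -0.32 in place of 0.23.

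The subicular gene Fn1 (chr9:78674439-78743407 in Rnor_5.0) encodes fibronectin, an extracellular matrix protein that marks pyramidal cells of the dorsal subiculum in mouse and is also made by vascular cells. It read 8.36, 8.45, 8.41 and 8.43 on nicotine-sired arrays, and 8.09, 8.22, 7.93 and 8.24 on saline-sired arrays. The 4 nicotine-sired values lay within 0.1 of each other and above all saline-sired values. The difference of 0.29 ± 0.08 (1.22-fold) had an interval from 1.07-fold to 1.39-fold and did not pass (adjusted p = 0.0886 in limma). The adjusted p ran from 0.0675 with median centring to 0.716 with the CA1 covariate, and no alternative brought it past the threshold. The authors' deposited table gives Fn1 an adjusted p-value of 0.457. Fn1 was lowest on saline-sired 3, where Nts, the neurotensin gene and a member of the wider subicular list, was lowest too, at 6.27. Of the same list, looked at after the values were seen, Slc17a6 (6.21) and Lxn (10.10) were also lowest there, and Prss12 was highest (8.50). The low values on that array were not particular to subicular genes, since the CA1 score (-1.62) and Etv1 were lowest there as well. The 6 endothelial and pericyte markers all differed upward in nicotine-sired sons, with mean centred levels from 0.04 to 0.18 on nicotine-sired arrays and from -0.23 to 0.06 on saline-sired arrays. The pericyte gene Rgs5 rose by 0.39 ± 0.07 (adjusted p = 0.0379 in limma), a call that was kept without nicotine-sired 2 or 4 and lost without any of the other 6 arrays (adjusted p from 0.0532 to 0.110). In the fits that lost it, 0 to 98 of all kept probe sets were called. The part of vascular cells in the Fn1 value was not tested.

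No single array was high in all neocortical genes. Nicotine-sired 1 held the highest values of Fezf2 and Etv1 and the lowest of Cux2 and Tbr1. Nicotine-sired 4 held the highest values of Rorb, Tle4 and Foxp2 and the lowest of Fezf2. Saline-sired 3 held the highest value of Tbr1 and the lowest of Foxp2, Etv1 and Fn1. Nicotine-sired 2 lay above a gene's median over the 8 arrays for 7 of the 8 genes, with centred levels of at most 0.26 in any of them. The 5 neocortical genes past the filter other than Etv1 had mean centred levels from -0.07 to 0.07 on nicotine-sired arrays and from -0.07 to 0.06 on saline-sired arrays. This mean leaves out Etv1, the called gene, and averages values of opposite sign. On nicotine-sired 1 Fezf2 stood at 0.90 and Tbr1 at -0.46. The narrow range therefore does not show that the arrays held equal amounts of neocortex.

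**Figure D3:**
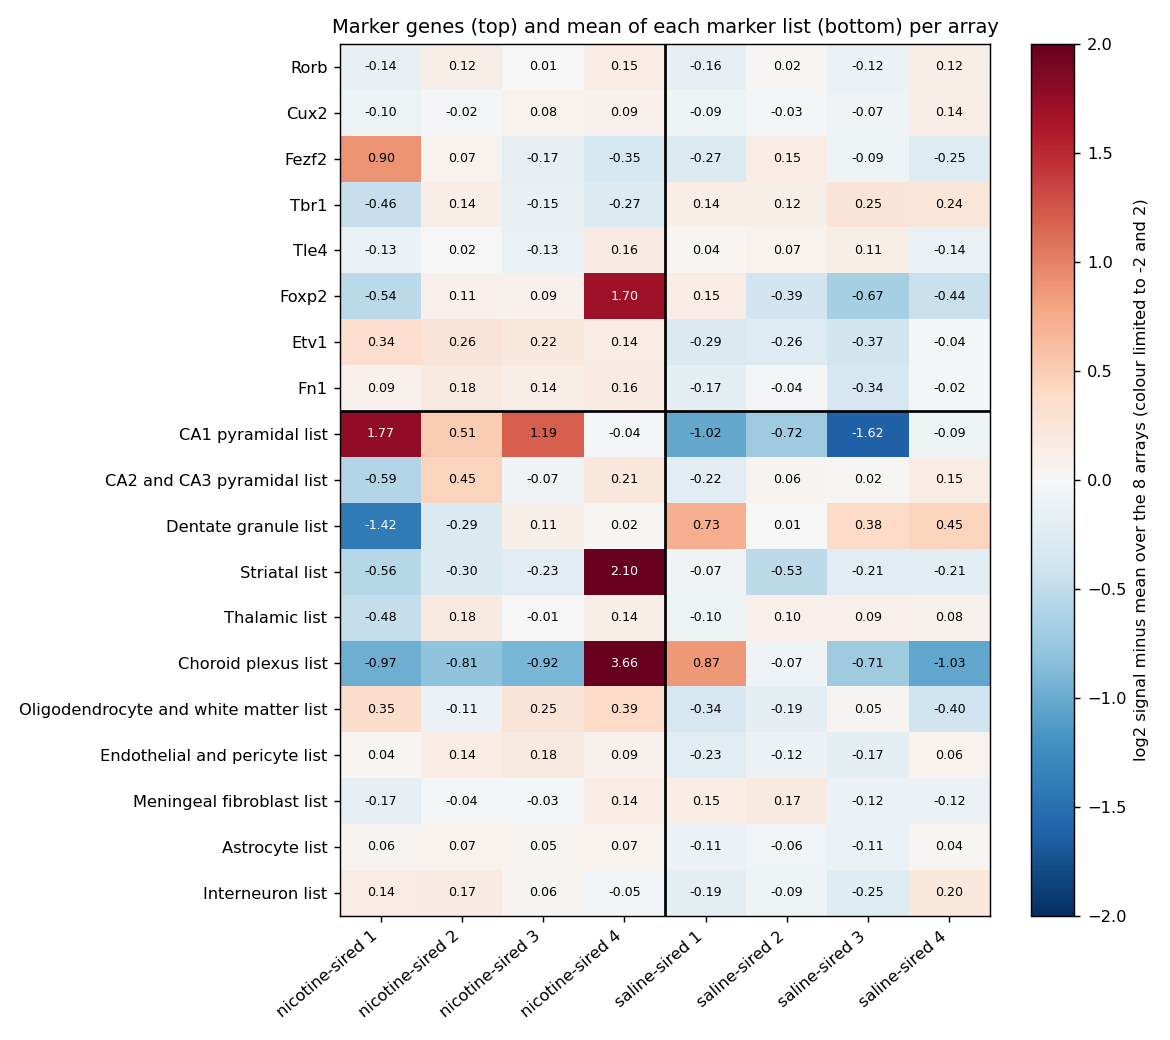
Log2 signal minus the mean over the 8 arrays for each of the 8 genes (top) and for the mean of each marker list past the filter (bottom), with nicotine-sired arrays left of saline-sired arrays. Colour is limited to -2 and 2 and the printed numbers are not. Foxp2 at 1.70 shares its column with the striatal list at 2.10 and the choroid plexus list at 3.66, and Fezf2 at 0.90 with the CA1 list at 1.77. On nicotine-sired 3 the CA1 list stands at 1.19 and Fezf2 at -0.17.

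Between the neocortex and CA1 lies white matter. All 10 oligodendrocyte markers lay higher in nicotine-sired sons (median 0.44), with 0 called by limma and 8 at an unadjusted p under 0.05, beside 2.06% and 24% of kept probe sets. The authors' deposited table called 0, beside 5.53% of gene-class probe sets. Cnp, a myelin enzyme, differed by 0.46 ± 0.11. Levels of the list were 0.35, -0.11, 0.25 and 0.39 on nicotine-sired arrays, and -0.34, -0.19, 0.05 and -0.40 on saline-sired arrays. Nicotine-sired 2 lay within the saline-sired range and the others above it. Whether white matter was taken with neocortex was not tested, and the Rorb and Cux2 values of the same arrays are those given above.

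Wider lists of layer genes gave calls in both directions. Of 12 other upper-layer genes past the filter 6 were higher and 6 lower, with a median difference of -0.0015 (0.038 with median centring), against -0.40 over the 6 genes left by a stricter filter (a mean above 8.38). Among the 12, limma called 1 and 7 had an unadjusted p under 0.05, beside 2.06% and 24% of kept probe sets. The groups did not overlap in 6, beside 14.3%, and the authors' deposited table called 4, beside 5.53% of gene-class probe sets. Lamp5, a membrane protein of superficial neurons, fell by 1.28 ± 0.26 (adjusted p = 0.0430 in limma). It read 8.31, 9.41, 8.68 and 9.59 on nicotine-sired arrays, and 10.25, 10.53, 10.30 and 10.02 on saline-sired arrays. Plxnd1, a semaphorin receptor, differed by 1.12 ± 0.28 and Rasgrf2, a Ras exchange factor, by -0.94 ± 0.24, both short of the threshold (adjusted p = 0.0662 and 0.0739). Both passed it without nicotine-sired 2 (adjusted p = 0.0402 for Plxnd1 and 0.0347 for Rasgrf2), in a fit that called 672 kept probe sets in place of 313. With the CA1 covariate Lamp5 differed by -0.40, Plxnd1 by 0.12 and Rasgrf2 by -0.16. Whether the signal of these genes came from neocortex or from the hippocampus in the punch was not tested. The call of Lamp5 was kept without nicotine-sired 2 or 4 and lost without any of the other 6 arrays (adjusted p from 0.0598 to 0.124). The fits that lost it called 0 to 98 of all kept probe sets.

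Of 11 other layer 5 genes 6 were higher and 5 lower (median 0.01). Limma called 0 of them, with 5 at an unadjusted p under 0.05, beside 2.06% and 24% of kept probe sets, and the authors' deposited table called 3, beside 5.53% of gene-class probe sets. Ldb2, an adaptor of LIM domain factors, differed by 1.66 ± 0.40, Bcl6, a transcriptional repressor, by 0.60 ± 0.16 and Deptor, an inhibitor of mTOR, by -0.46 ± 0.14. With the CA1 covariate these became 0.18 ± 0.34, -0.03 ± 0.13 and 0.0047 ± 0.15.

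Of 9 other genes of layers 6 and 6b 6 were higher and 3 lower (median 0.08), with 1 called by limma and 5 at an unadjusted p under 0.05, beside 2.06% and 24% of kept probe sets. The authors' deposited table called 2, beside 5.53% of gene-class probe sets. Foxp1, a forkhead factor that is also known from CA1, rose by 0.82 ± 0.13 (adjusted p = 0.0275 in limma). It read 11.02, 10.51, 10.58 and 10.66 on nicotine-sired arrays, and 9.73, 9.95, 9.71 and 10.11 on saline-sired arrays. All nicotine-sired values lay above all saline-sired values. Its call was lost without saline-sired 1 (adjusted p = 0.0994), 2 (0.0723) or 3 (0.0692), in fits that called 0 to 8 of all kept probe sets. With the CA1 covariate Foxp1 differed by 0.43. Zfpm2, a cofactor of GATA proteins, differed by -1.04 ± 0.24 and Osr1, a zinc finger factor, by -1.21 ± 0.41.

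Several layer genes did not pass the filter, and the following were chosen after their values were seen. Scnn1a, a sodium channel subunit used to mark layer 4, read 5.38 to 5.54 on nicotine-sired arrays and 5.46 to 5.66 on saline-sired arrays, all under the filter value of 6.30. Tcerg1l, of layer 5, read 5.76 to 6.27 on nicotine-sired arrays and 5.88 to 6.14 on saline-sired arrays. Nxph4, a neurexophilin of layer 6b, read 5.54 to 6.53 on nicotine-sired arrays, where 3 and 4 lay above the filter value, and 5.65 to 6.21 on saline-sired arrays. Levels of different probe sets were not compared with each other.

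In the wider subicular list 4 of 6 genes past the filter were higher, with a median of 0.21 that turned to -0.03 with the CA1 covariate. Limma called 0, with 5 at an unadjusted p under 0.05, beside 2.06% and 24% of kept probe sets, and the authors' deposited table called 1, beside 5.53% of gene-class probe sets. Nts read 11.29, 10.41, 11.29 and 9.69 on nicotine-sired arrays, and 8.03, 8.39, 6.27 and 9.55 on saline-sired arrays. The groups did not overlap, nicotine-sired 4 and saline-sired 4 being close. The difference of Nts was 2.61 ± 0.62 (adjusted p = 0.0620 in limma), and 0.22 with the CA1 covariate. Slc17a6, the vesicular glutamate transporter of subicular and thalamic neurons, differed by 1.03 ± 0.32 and, with the covariate, by -0.17 ± 0.27. Prss12, a secreted protease, differed by -0.71 ± 0.18. Without nicotine-sired 4 limma called 2 of the 6 genes, beside 737 of the 15161 kept probe sets. Without nicotine-sired 3 it called 1, beside 98 of the 15161.

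**Figure D4:**
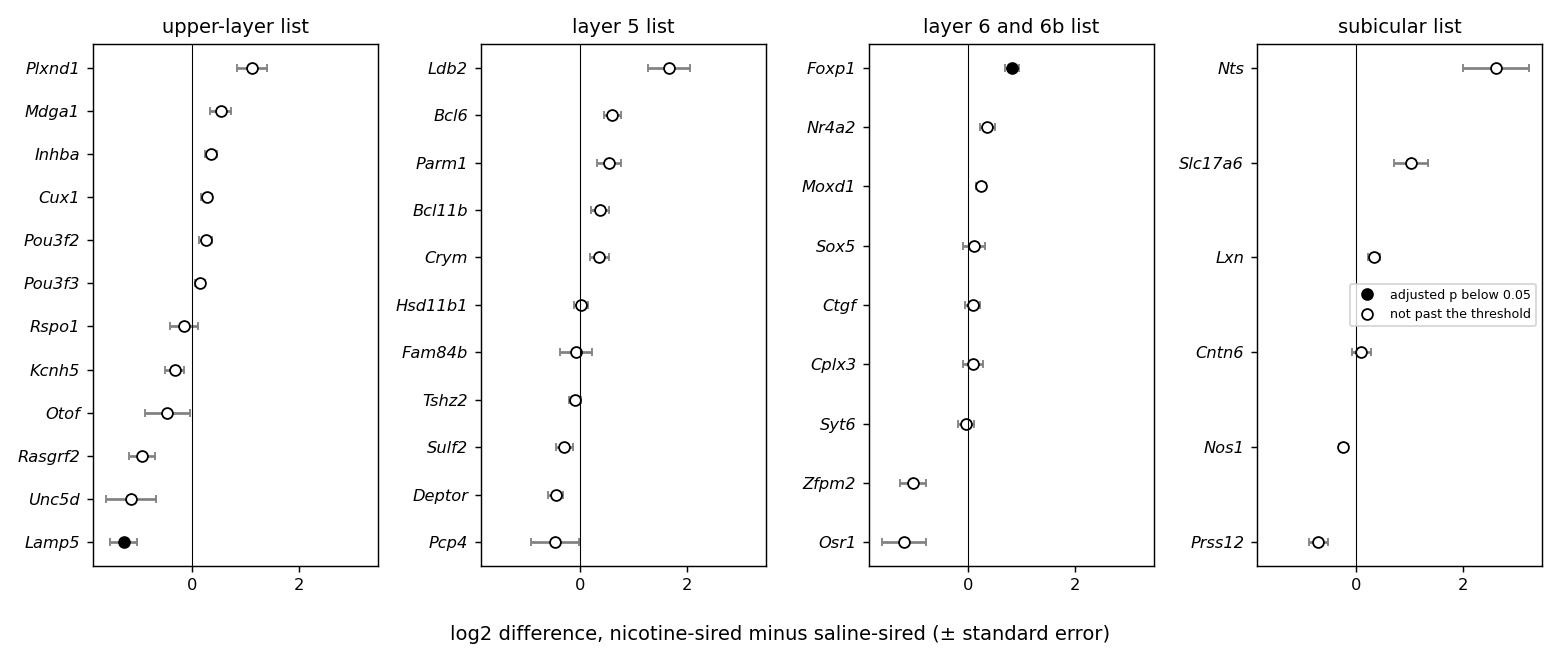
Difference between nicotine-sired and saline-sired arrays (log2 units, ± standard error) for the genes past the filter in 4 wider lists of neocortical and subicular markers. Filled points passed an adjusted p of 0.05. Each list holds genes on both sides of 0, with Lamp5 at -1.28 and Foxp1 at 0.82 as the called ones.

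Genes whose profile over the 8 arrays lay nearest to that of a marker were sought among kept probe sets with 1 symbol, by the root mean square distance between centred log2 profiles. For Etv1, with an SD of 0.279 over the 8 arrays, they were Csdc2 at a distance of 0.0677 and Macrod2 at 0.0708. Macrod2 rose by 0.44 ± 0.08 (adjusted p = 0.0383 in limma). For Tbr1 (SD 0.263) they were Yaf2 at 0.0663 and Orai2 at 0.0689, and for Fn1 (SD 0.183) Gpr37l1 at 0.0575 and Ccdc15 at 0.0598. The nearest to Fezf2 (SD 0.401), St8sia5 at 0.123 and Tmem185a at 0.132, were farther off. Rorb, Cux2 and Tle4 had SDs of 0.128, 0.0909 and 0.117, and their nearest genes were Ptar1 and Klhl5, Tbc1d2b and Mier1, and Pex16 and Dusp14, at 0.0331 to 0.0530.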

How the data were processed

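Per the labels, total RNA was hybridised as biotinylated cDNA to Affymetrix arrays. MAS5 is named, without a version, per the submitters' processing notes. How the deposited log2 signals were summarised and normalized was not given in the sources used here, nor were the array model and scan dates. The deposited value table and the authors' deposited analysis table hold the same log2 values (largest difference 0). Per the file headers, the latter also gives the authors' ratio of both group means on the linear scale, the same as a signed score (minus the inverse where it is below 1), a p-value and its step-up adjustment.

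Control classes were left out. Probe sets whose mean over the 8 arrays was above 6.30 were kept (15161), and Foxp2, under it, was tested among all 30323. Groups were compared with limma 3.58.1 in R 4.3.3 (lmFit, eBayes with a trend, two-sided, Benjamini-Hochberg over all probe sets tested), and the code was tested on simulated data. Errors after differences are standard errors. No pseudocount was needed. The number of arrays limits the precision.

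The members and lists were chosen with earlier results of these data known. Named genes were the 8 members; in each wider list the 3 smallest p and all called; in each cell type list (CA1, CA2 and CA3, dentate, oligodendrocyte, striatal, thalamic, vascular, meningeal, astrocyte, interneuron, choroid plexus, pan-neuronal) the smallest p and all called; and the 2 nearest profiles of each member past the filter. 1 gene of the wider lists is not reported here and is left out of their counts. Genes outside this rule are marked where they are given. Symbols are those of the file, or RefSeq names of GRCr8 by gene ID. Alternatives covered filters, quantile normalization, median centring, an offset of 50 on back-transformed values, eBayes without a trend, the litter number as a block, a CA1 marker score as a covariate, the authors' adjusted p-value and each array left out.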

Additional observations from a re-analysis of the deposited data

How the results depend on the processing

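The call of Etv1 alone among the 8 genes was unchanged with no filter, a stricter filter, quantile normalization, median centring, an offset, eBayes without a trend and the authors' adjusted p-value. With the litter number as a replicate block limma called 0 of the 7 genes (3 at an unadjusted p under 0.05) and 0 of all kept probe sets (3326 at an unadjusted p under 0.05), and with the CA1 covariate 0 of 7 (2) and 0 of all (1425). Etv1 had an adjusted p of 0.0969 with the block. Deviations of same-numbered arrays correlated at -0.14, 0.18, -0.05 and -0.17, so the numbers were not taken as pairs. Leaving out each array gave 0 to 2 called genes and 0 to 737 called probe sets in place of 313. The probe sets called were 80, 672, 98 and 737 without nicotine-sired 1 to 4, and 0, 8, 0 and 70 without saline-sired 1 to 4. Single calls gained or lost without an array are to be read beside these counts. No filter gave 155 and a stricter filter 181. In the wider lists the counts were 0 to 3 for the upper-layer list in place of 1, 0 to 3 for layer 5 in place of 0, 0 to 3 for layers 6 and 6b in place of 1, 0 to 2 for the subicular list in place of 0 and 0 to 12 for the cell type lists in place of 2. The block and the covariate each gave 0 in all of these lists, no filter gave 0 in the upper-layer and cell type lists, and eBayes without a trend gave 0 in the upper-layer list.

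Signs that turned were sought among the 8 genes and the genes that the naming rule picked from the lists. They turned with the CA1 covariate for Fezf2 (-0.32 ± 0.35), Tle4 (0.23 ± 0.10), Bcl6 (-0.027 ± 0.13), Deptor (0.0047 ± 0.15), Slc17a6 (-0.17 ± 0.27) and Vip (-0.28 ± 0.22). With quantile normalization the sign turned for Cux2 (-0.019 ± 0.076). Leaving out an array gave -0.0013 to 0.076 for Cux2 and -0.033 to 0.38 for Fezf2. The cause was not tested. Each of the 8 genes had 1 probe set, so no other probe set could be tried. Signals near those of antigenomic controls limit what Foxp2 can show.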

Other observations

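Other marker lists that the punches could hold gave these values. Rgs14, a CA2 marker, differed by 0.69 ± 0.15, and 5 of 8 CA2 and CA3 markers were higher (median 0.06). All 5 dentate markers past the filter were lower (median -0.81), and Trpc6 differed by -0.81 ± 0.24. Of 5 thalamic genes 3 were higher, and Rora differed by 0.39 ± 0.09. Of 3 meningeal genes 1 was higher, and Col1a1 differed by -0.22 ± 0.16. All 6 astrocyte markers were higher (median 0.12), and Aqp4 differed by 0.14 ± 0.04. Of 7 interneuron markers 5 were higher, and Vip differed by 0.68 ± 0.26. Of 4 choroid plexus genes 3 were higher, and Folr1 differed by 1.16 ± 0.59, reading 9.51 on nicotine-sired 4 and at most 6.74 on the others. Without that array Folr1 differed by 0.43 ± 0.14. Kl, chosen after its values were seen, was also counted as higher. It read 11.44 on nicotine-sired 4, 5.08 to 5.49 on the other nicotine-sired arrays and 5.52 to 7.37 on saline-sired arrays. The mean used for the filter includes nicotine-sired 4, and saline-sired means of Folr1 (6.15) and Kl (6.17) lay under the filter value. Of 6 pan-neuronal genes 4 were lower, and Slc17a7 differed by -0.17 ± 0.05. None of the genes in this paragraph passed an adjusted p of 0.05 in limma.

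Some other layer markers were highest on nicotine-sired 4 and others were lowest there. Those given here were chosen after their values were seen. Fam84b read 8.73 there, and 7.25 to 8.11 on the other 7 arrays. Of the upper-layer list, Cux1 read 9.32, and 8.71 to 8.97 on the others, and Pou3f2 read 8.07, and 7.38 to 7.65 on the others. Npr3, which did not pass the filter, read 6.80, and 5.63 to 6.30 on the others. Oprk1, the kappa opioid receptor, also under the filter, read 6.96, and 5.72 to 6.26 on the others. In the other direction, Fezf2 was lowest on nicotine-sired 4. Rspo1 was lowest there too, at 7.59, and read 7.68 to 8.80 on the others. Hsd11b1 read 9.62 there, and 9.66 to 10.20 on the others. Scnn1a (5.38) and Tcerg1l (5.76), both under the filter, also had their lowest values there.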
